A study of Homo sapiens with 7 samples.

Results

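Myc summits at the ends of long non-coding RNA (lncRNA) genes that lie far from any protein-coding gene end were described in HT29 cells. A peak was taken when its summit, the base with the strongest signal, lay on chromosomes 1 to 22, within 1 kb of an end of a RefSeq lncRNA gene and over 10 kb from either end of any protein-coding gene. Of the 47017 peaks in the authors' list, 46129 were on these chromosomes and 1569 met the rule. They lay at the ends of 1464 lncRNA genes, of which 1277 had 1 such peak, 179 had 2 and 8 had 3 or more. By position, 1480 of the summits were near 1 lncRNA gene, 87 were near 2 and 2 were near 3 or more.

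Binding was measured by CUT&RUN, in which an antibody guides a nuclease to its target inside permeabilised cells and the cut DNA fragments are sequenced. HT29 is a long-used human cell line derived from a colon adenocarcinoma, and the study is about obesity, colon cancer and the triglyceride-synthesis enzymes DGAT1 and DGAT2. By title there were 3 Myc libraries, 3 IgG control libraries and 1 input, all from cells that had been kept in serum-free medium with oleic acid, a monounsaturated fatty acid, for 6 h. In the labels the IgG libraries carry the name of the Myc antibody, libraries of cells without oleic acid were not analysed here, and the list holds 1 value per peak with none per library. So no spread between libraries could be given, no test over libraries was possible, and every interval covers counting error or the spread among peaks only.

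Myc is a transcription factor that pairs with MAX and binds the E-box CACGTG and related sequences, most often in promoters rich in CG dinucleotides. Long non-coding RNAs are transcripts without a known protein product. Some carry microRNAs or small nucleolar RNAs in their introns or exons, and some, such as PVT1 and CCAT1, lie in the gene-poor neighbourhood of MYC itself. Summits at such genes that are near no coding gene end can be assigned to a lncRNA end by position. Distance was taken to the outer ends of coding genes only, so a coding start inside a gene was not excluded. The biotype is RefSeq's, and whether these genes were transcribed in HT29 cells was not measured.

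The promoter windows below are printed because they belong to the strongest members, so that a reader can see what surrounds the start where Myc signal was highest. Each is 300 bp, 250 bp before and 50 bp after the start, read 5′ to 3′ along the gene's strand from RefSeq on GRCh38.p14 (the chromosomes of hg38). Capitals mark E-boxes (CACGTG) and AP-1 sites (TGAGTCA, or TGACTCA where it lies on the other strand). The first 4 have the highest fold enrichment among member promoters that hold an E-box. The next 2, printed as a contrast, have the highest among those without one. The last 2, chosen after their values were seen, hold an AP-1 site, the sequence bound by JUN and FOS dimers, and ENEMAL holds an E-box beside it.
LOC112267936, chr5:154754971-154755270, minus strand: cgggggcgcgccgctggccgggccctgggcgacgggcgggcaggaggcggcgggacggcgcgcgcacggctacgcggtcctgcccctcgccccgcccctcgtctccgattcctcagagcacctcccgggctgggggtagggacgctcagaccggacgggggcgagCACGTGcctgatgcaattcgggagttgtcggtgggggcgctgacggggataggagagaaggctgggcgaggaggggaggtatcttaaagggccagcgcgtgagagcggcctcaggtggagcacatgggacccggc
LOC105375456, chr7:112391288-112391587, minus strand: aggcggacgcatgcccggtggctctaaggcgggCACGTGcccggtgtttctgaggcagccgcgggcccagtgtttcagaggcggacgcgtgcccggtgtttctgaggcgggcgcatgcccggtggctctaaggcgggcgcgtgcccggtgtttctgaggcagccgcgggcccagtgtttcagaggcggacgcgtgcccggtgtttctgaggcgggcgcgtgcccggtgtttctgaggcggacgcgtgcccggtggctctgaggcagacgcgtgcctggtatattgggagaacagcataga
LOC101928764, chr13:21298042-21298341, minus strand: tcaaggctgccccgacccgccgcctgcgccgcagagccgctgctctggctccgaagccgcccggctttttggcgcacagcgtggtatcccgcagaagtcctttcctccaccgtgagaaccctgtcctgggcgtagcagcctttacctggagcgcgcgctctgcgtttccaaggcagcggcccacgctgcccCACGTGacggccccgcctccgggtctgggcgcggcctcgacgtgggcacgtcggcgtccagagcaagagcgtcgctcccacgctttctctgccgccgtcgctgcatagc
SLCO4A1-AS1, chr20:62666572-62666871, minus strand: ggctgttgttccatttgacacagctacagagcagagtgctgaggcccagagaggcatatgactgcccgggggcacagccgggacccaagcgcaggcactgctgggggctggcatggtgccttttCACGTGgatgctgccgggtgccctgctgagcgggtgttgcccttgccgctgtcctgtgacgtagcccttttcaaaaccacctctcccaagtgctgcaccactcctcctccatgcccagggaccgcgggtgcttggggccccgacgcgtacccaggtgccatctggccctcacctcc
LOC124904989, chr21:7142275-7142574, minus strand: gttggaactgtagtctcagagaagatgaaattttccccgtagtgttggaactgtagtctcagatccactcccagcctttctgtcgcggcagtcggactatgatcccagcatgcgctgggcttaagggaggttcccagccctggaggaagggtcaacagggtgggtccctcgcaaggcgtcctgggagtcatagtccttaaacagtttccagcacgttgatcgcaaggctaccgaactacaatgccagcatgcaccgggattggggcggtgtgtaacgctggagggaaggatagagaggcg
STAG3L5P-PVRIG2P-PILRB, chr7:100335815-100336114, plus strand: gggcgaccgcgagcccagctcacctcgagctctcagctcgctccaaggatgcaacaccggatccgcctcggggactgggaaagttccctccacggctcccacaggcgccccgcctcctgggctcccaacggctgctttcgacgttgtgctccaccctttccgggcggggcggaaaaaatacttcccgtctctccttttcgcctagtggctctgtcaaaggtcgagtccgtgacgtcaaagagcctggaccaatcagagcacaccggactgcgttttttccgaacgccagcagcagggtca
LOC102723480, chr1:93692901-93693200, plus strand: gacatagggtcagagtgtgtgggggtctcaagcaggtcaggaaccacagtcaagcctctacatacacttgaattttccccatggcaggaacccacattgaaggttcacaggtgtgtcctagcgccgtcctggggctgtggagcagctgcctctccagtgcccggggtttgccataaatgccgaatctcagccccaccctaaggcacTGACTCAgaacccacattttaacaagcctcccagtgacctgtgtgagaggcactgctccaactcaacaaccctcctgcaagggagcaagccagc
ENEMAL, chr11:65477438-65477737, minus strand: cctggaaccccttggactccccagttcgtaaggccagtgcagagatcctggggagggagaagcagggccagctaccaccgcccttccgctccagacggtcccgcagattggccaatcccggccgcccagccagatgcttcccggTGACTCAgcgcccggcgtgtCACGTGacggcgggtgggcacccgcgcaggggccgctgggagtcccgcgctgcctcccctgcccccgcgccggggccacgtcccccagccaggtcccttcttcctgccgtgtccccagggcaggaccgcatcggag

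In these windows the first base of the E-box lay 85 bp before the start at LOC112267936, 217 bp at LOC105375456, 59 bp at LOC101928764, 126 bp at SLCO4A1-AS1 and 86 bp at ENEMAL. The AP-1 site began 44 bp before the start at LOC102723480 and 106 bp before it at ENEMAL. The summits did not sit on these letters. They were 169 bp downstream of the start at LOC112267936 and 109 bp downstream at LOC102723480, but 556 bp upstream at LOC105375456, 226 bp upstream at LOC101928764, 219 bp upstream at SLCO4A1-AS1 and 293 bp upstream at ENEMAL. The number of CG dinucleotides was 36 in LOC112267936, 35 in LOC105375456 and 37 in LOC101928764, against 13 in SLCO4A1-AS1, 14 in LOC124904989 and 4 in LOC102723480.

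Signal at the distant lncRNA ends stood between that of coding gene ends and that of other distant sites. The authors' fold enrichment, the Myc pileup plus 1 over the local control level plus 1 at the summit, had a median of 4.57 (95% interval of the median 4.35 to 4.76) over the 1569 member peaks. It was 4.90 (4.63 to 5.09) over the 904 peaks at a lncRNA end that lay 1 to 10 kb from a coding end and 7.06 (6.92 to 7.14) over the 10839 peaks within 1 kb of a coding end. Over the 21992 peaks that were as far from coding ends but near no lncRNA end it was 3.61 (3.61 to 3.63). The interval of the members overlapped that of the lncRNA ends nearer coding genes and neither of the other two.

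Behind these folds, the pileup, the number of fragments over the summit, had a median of 33 at member peaks, 50 at coding ends and 26 at distant sites without a lncRNA end. The control level was close to equal, with medians of 6.14, 5.89 and 6.22 fragments in the same order of sets. Member peaks had a median width of 793 bp, against 1361 bp at coding ends and 561.5 bp at distant sites without a lncRNA end. A fold over 10 was found for 167 members (10.6%), against 2844 peaks at coding ends (26.2%) and 736 distant peaks without a lncRNA end (3.35%). The folds of single members ran from 2.04 to 25.7, with 5% of them above 12.7, so the sets overlap over most of their range.

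**Figure D1:**
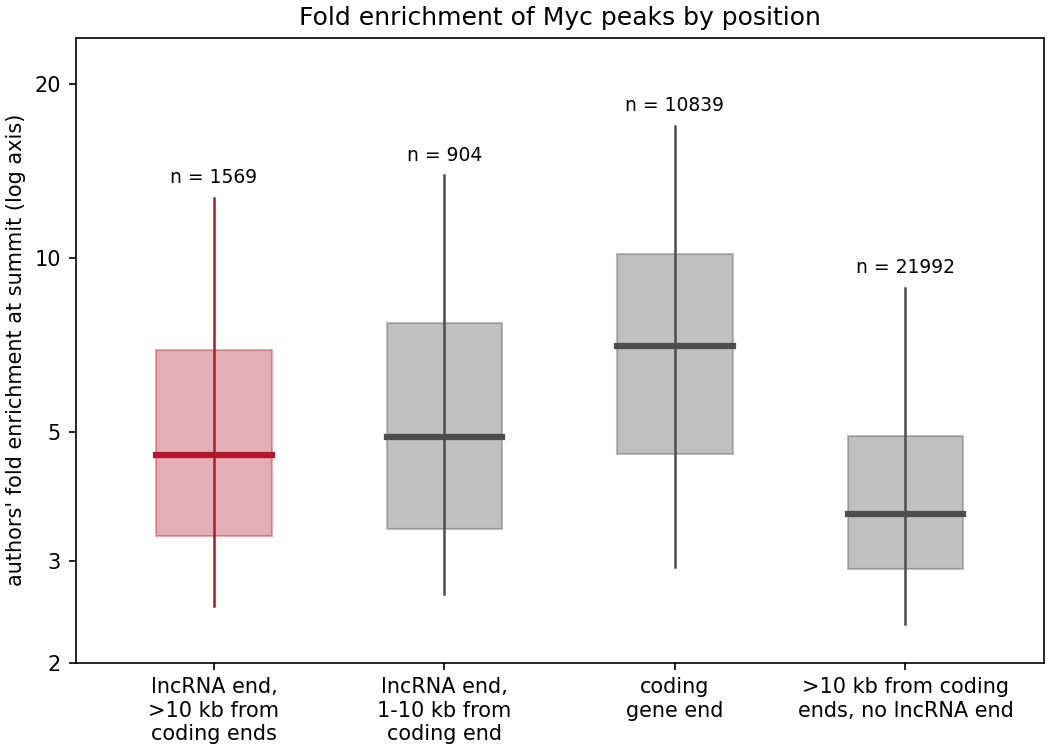
The authors' fold enrichment at the summit (log axis) is shown for 4 sets of autosomal peaks; thick lines are medians, boxes span the quartiles and thin lines the 5th to 95th percentile. The 1569 distant lncRNA ends have a median of 4.57, between the 7.06 of coding ends and the 3.61 of other distant sites, with wide overlap.

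Among the 23561 peaks over 10 kb from coding ends, 6.66% (Wilson 95% interval 6.35 to 6.98) were at a lncRNA end. When these peaks were ordered by fold and cut into 10 equal bins, the share was 3.39% (2.736 to 4.204) in the lowest bin and 15.2% (13.8 to 16.7) in the highest. The strongest distant Myc peaks were thus more often at a lncRNA end than the weakest were. Member summits lay a median of 38609 bp from the nearest coding end, with quartiles of 19704 and 80252 bp. The 621 members over 50 kb away had a median fold of 4.14 (3.97 to 4.30), against 4.83 (4.64 to 5.09) for the 948 that were 10 to 50 kb away. A distant summit can still lie inside a long coding gene, and 503 members (32.1%) did. Their median fold was 4.72 (4.35 to 5.04), against 4.48 (4.27 to 4.70) for the 1066 outside coding gene spans, and the intervals overlapped.

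Most distant lncRNA genes had no listed Myc peak at either end. Of 11073 lncRNA genes with both ends over 10 kb from every coding end, 1244 had a summit 1 kb or less from either end, which is 11.2% (10.7 to 11.8). The share was 41.3% (40.2 to 42.5) for the 6722 other lncRNA genes, 22.6% for all 17795 lncRNA genes and 57.4% for 19122 protein-coding genes. The share differed with the kind of gene symbol. It was 9.29% (8.67 to 9.94) for the 8020 genes with a LOC number and no other name and 13.6% (12.1 to 15.2) for the 1847 LINC genes. It was 18.8% (16.1 to 21.9) for the 712 genes named as antisense to another gene and 24.8% (20.5 to 29.6) for the 347 with names of their own. Of 51 distant microRNA host genes, 12 had a summit (23.5%, 14 to 36.8). Of 19 genes whose symbol ends in DT, for divergent transcript, 8 did (42.1%, 23.1 to 63.7). Like all distant genes, these 19 have both ends over 10 kb from every coding end. These last classes are small, and their intervals were wide.

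Myc sat at the 5′ end of these genes more often than at the 3′ end. RefSeq's promoter table gave the start and strand of 6629 of the 11073 distant genes, and 5880 of these were over 2 kb long, so that their ends could be told apart. A summit lay within 1 kb of the 5′ end in 590 of the 5880 (10.0%, 9.29 to 10.8) and of the 3′ end in 208 (3.54%, 3.09 to 4.04), and 68 genes (1.16%) had both. Other lncRNA genes had a summit at 44.0% of 5′ ends and 7.39% of 3′ ends (n = 3831), and coding genes at 59.3% and 8.24% (n = 14248). The ratio of 5′ to 3′ ends was therefore smallest at the distant genes. Genes in the table had a summit at either end in 12.6% of cases (11.9 to 13.5), against 9.14% (8.32 to 10.0) for the 4444 distant genes that were not matched to it, so the split by end describes a set with somewhat more peaks.

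**Figure D2:**
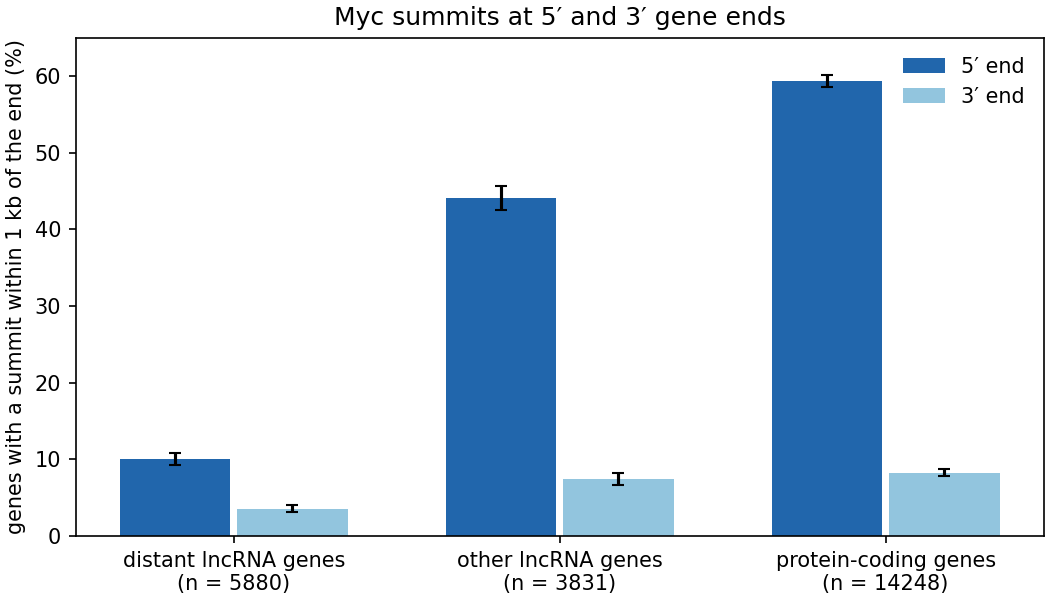
The share of genes with a Myc summit within 1 kb of the 5′ end (dark) and of the 3′ end (light) is shown for genes over 2 kb long; bars are shares in percent and whiskers Wilson 95% intervals. Distant lncRNA genes had 10.0% at 5′ ends and 3.54% at 3′ ends, both below the other lncRNA genes and the coding genes.

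Of 964 member summits whose nearest gene end could be assigned, 692 (71.8%, 68.9 to 74.5) were at a 5′ end and 272 (28.2%) at a 3′ end. Those at 5′ ends were stronger and wider, with a median fold of 5.09 (4.79 to 5.33) and a median width of 950.5 bp, against 3.93 (3.77 to 4.21) and 655 bp at 3′ ends. They were also closer to the annotated end, at a median of 253 bp against 495.5 bp. In 69 genes with member summits at both ends and a known strand, the 5′ peak had the higher fold in 46, and the median folds were 6.20 at the 5′ ends and 4.08 at the 3′ ends.

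Around the start itself, the summits of 787 promoters were spread on both sides. Each gene counts with 1 start, the nearest to a member summit where RefSeq gives several, as for 88 genes, and 37 of the starts were not at the end of the annotated gene. Of these, 433 (55.0%, 51.5 to 58.5) lay downstream of the start, the median position was 61 bp downstream, and 401 (51.0%) were within 250 bp. The first 250 bp downstream held 264 summits (33.5%), the 250 bp upstream 136 (17.3%) and the next 250 bp upstream 143 (18.2%). In 40 peaks, the starts of 2 lncRNA genes on opposite strands lay within 1 kb of the same summit. The genes ran away from each other in 25, toward and across each other in 14, and both orders occurred in 1. Their median fold was 6.10 (4.497 to 7.877). The 4 strongest were LINC00662 with LINC02987 at 21.6, LINC01144 with LOC105378691 at 15.6, DLEU1 with DLEU2 at 14.5 and FAM88B with LERFS at 12.8.

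**Figure D3:**
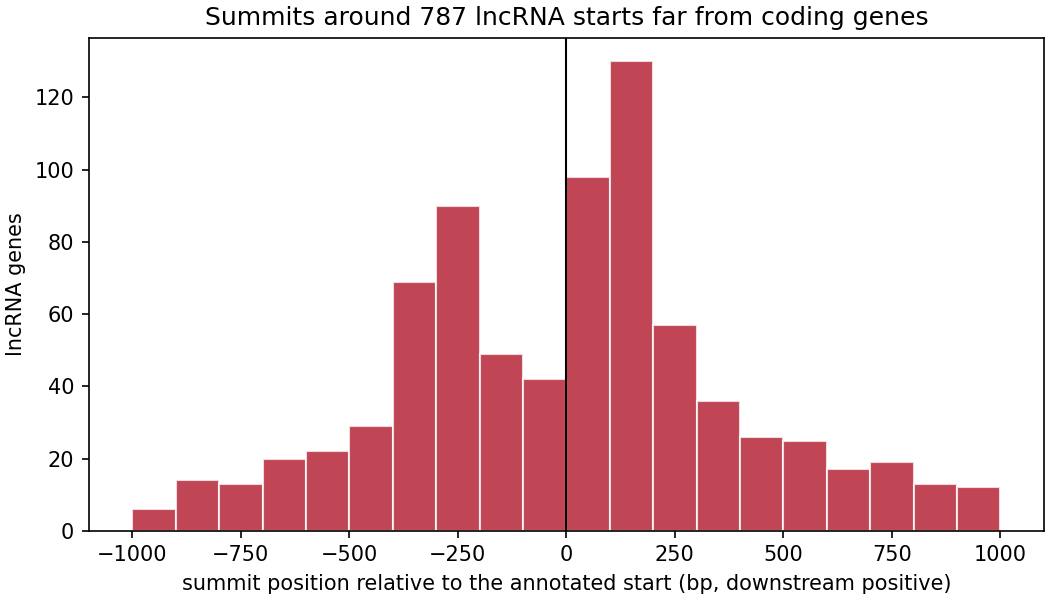
Positions of the summits relative to the annotated start are shown for 787 lncRNA genes with a start within 1 kb of a member summit. The x axis is binned in bp with downstream positive, and bars count genes. Summits gather on both sides of the start, with 433 of 787 downstream of it.

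The 12 strongest members had folds of 20.9 to 25.7, at pileups of 128 to 276 fragments. The highest was at the higher-coordinate end of SLC12A9-AS1 (chromosome 7, summit 100852471), a gene antisense to the transporter gene SLC12A9 and inside it, with a pileup of 188 over a control of 6.36 and a fold of 25.7 (Poisson 95% interval 22.2 to 29.6). LOC124904989 on chromosome 21 followed at 25.4 (22.4 to 28.6), with 267 fragments over a control of 9.57. LOC112267936 on chromosome 5, inside LARP1, had 24.1 (20.9 to 27.7), and a peak shared by LINC02449 and LOC112268090 on chromosome 12 had 24.1 (20.4 to 28.3). STAG3L5P-PVRIG2P-PILRB, annotated as a readthrough transcript by its name, had 23.3 (19.8 to 27.3). All of these intervals overlap, so the order among them is not resolved by counting.

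Next came the shared start of LINC00662 and LINC02987 on chromosome 19, with 21.6 (18.1 to 25.5) at 1411701 bp from the nearest coding end, that of UQCRFS1. LOC105375456 had 21.4 (18.8 to 24.4) and LOC105372817, inside WDR4, had 21.1 (17.9 to 24.8). A summit near LINC02739 and LOC102723575 had 21.2 (18.0 to 24.8) and lay within 1 kb of a lysine transfer RNA gene, TRK-TTT3-4, at the 3′ end of LINC02739. LOC105373928 on chromosome 2 had 21.2 (17.7 to 25.1), 543 bp beyond its 3′ end. LOC124904991 and LOC124904990, both on chromosome 21, had 21.0 (18.6 to 23.6) and 20.9 (18.4 to 23.7).

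Several of the strongest members lie in sequence that occurs more than once in the genome. The promoter windows of LOC124904989, LOC124904990, LOC124904991 and LOC124904992 were identical over all 300 bp, and so were those of LOC124901713 and LOC124901714 on chromosome 7. Fragments from identical sequence cannot be assigned to a copy by these bases, and how the authors treated such fragments is not stated in what was used here. The 4 chromosome 21 copies had pileups of 253 to 276 over control levels of 9.57 to 13.8. Copies were counted by the share of 31-base words of a promoter that another promoter also held. At least 50% were shared by 26 of 787 member promoters (3.30%, 2.26 to 4.80), against 101 of 5918 distant lncRNA promoters with no summit within 1 kb (1.71%). The median control level was 7.89 fragments at the 26 copied promoters and 6.14 at the other 761, and the median folds were 8.60 and 5.23.

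Pseudogenes, inactive copies of genes, were a further feature of the strong members, and this was looked at after the values were seen. A pseudogene end lay within 1 kb of the summit in 7 of the 20 strongest members and 13 of the 100 strongest, against 60 of all 1569 (3.82%). In 5 cases the summit was at a FAM86 pseudogene, a remnant of a methyltransferase family, on chromosomes 3, 4 and 12. LINC02449 at FAM86FP had a fold of 24.1, LINC02021 at FAM86HP 20.9 (18.0 to 24.1), LOC102723696 at FAM86JP 19.8 (16.5 to 23.6), LINC02018 at FAM86DP 18.4 (15.1 to 22.1) and LOC105374358 at FAM86EP 14.3 (11.8 to 17.1). LINC01106 and LINC01123, whose promoters shared 95.9% of 31-base words, had 19.2 (16.2 to 22.5) and 18.3 (15.5 to 21.4). The 60 members at a pseudogene end had a median fold of 6.71 (5.25 to 8.07), against 4.46 (4.27 to 4.67) for the other 1509. Their median control level was 6.21 fragments, against 6.14 for the others.

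Genes that host small nucleolar RNAs, which guide chemical modification of ribosomal and other RNA, were listed as a group. Of 30 such lncRNA genes, 28 had a summit 1 kb or less from either end (93.3%, 78.7 to 98.2). The share was 22.6% for all lncRNA genes and 41.3% for those not far from coding genes by both ends. Only 3 of the 30 were far by both ends, and for the others a coding end may lie beside the same summit. A member peak was found at 5. SNHG5 had a pileup of 99 and a fold of 15.2 (12.4 to 18.5) at 438 bp beyond its 5′ end. DANCR, which also carries the microRNA gene MIR4449 107 bp from the summit, had 13.8 (11.01 to 17.05) from a pileup of 83. ZFAS1 had its member summit at the 3′ end, with 5.68 (4.28 to 7.39). SNHG26 had 4.56 (3.12 to 6.45) and SNHG11 had 3.52 (2.394 to 4.999), near the median of the members or below it. GAS5 and SNHG1 had summits too, 420 and 356 bp from an end, but they lie 963 and 224 bp from coding ends and are not members.

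MicroRNA host genes had member peaks with a median fold of 6.32 over 17 peaks (4.57 to 8.98), by gene symbols of that class. Of 83 listed hosts, 52 were far from coding genes and 13 of these had a summit (25%, 15.2 to 38.2), against 11.2% of all distant lncRNA genes. Over the whole list it was 29 of 83 (34.9%, 25.6 to 45.7), against 22.6% of all lncRNA genes, and 16 had a member peak. The 5 strongest were MIR550A3HG at 13.0 (10.5 to 16.0), DLEU2 at 11.9 (9.54 to 14.7), MIRLET7A1HG at 11.7 (9.27 to 14.5), MIR4713HG at 10.1 (8.18 to 12.4) and MIR29B2CHG at 10.0 (7.96 to 12.5). DLEU2, MIRLET7A1HG and MIR29B2CHG each had this summit at the 5′ end of the annotated gene and their hairpins on the same strand. The distance from the summit to the hairpin was 8911 bp for MIRLET7A1, 75694 bp for MIR15A and 75834 bp for MIR16-1 in DLEU2, and 21074 bp for MIR29C and 20490 bp for MIR29B2. The promoter table gives DLEU2 a second start inside the gene, beside that of DLEU1, where the summit had a fold of 14.5 and lay 33157 bp from MIR15A and 33297 bp from MIR16-1.

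The mature microRNAs of these hosts, with those of MIR31HG and MIR200BHG, are printed because they show which seeds lie in genes with a Myc summit at the 5′ end. MIR200BHG was chosen after its values were seen. Sequences are from RefSeq on GRCh38.p14, and capitals mark the seed, bases 2 to 8.
hsa-let-7a-5p (MIRLET7A1HG): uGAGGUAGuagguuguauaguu
hsa-let-7f-5p (MIRLET7A1HG): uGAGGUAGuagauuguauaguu
hsa-let-7d-5p (MIRLET7A1HG): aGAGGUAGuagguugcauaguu
hsa-miR-15a-5p (DLEU2): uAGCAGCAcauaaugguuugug
hsa-miR-16-5p (DLEU2): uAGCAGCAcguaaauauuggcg
hsa-miR-29b-3p (MIR29B2CHG): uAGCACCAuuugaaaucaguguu
hsa-miR-29c-3p (MIR29B2CHG): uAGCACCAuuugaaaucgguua
hsa-miR-31-5p (MIR31HG): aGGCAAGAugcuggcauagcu
hsa-miR-200b-3p (MIR200BHG): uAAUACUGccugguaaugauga
hsa-miR-429 (MIR200BHG): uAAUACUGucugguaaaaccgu

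Among the sequences printed, those of let-7 share 1 seed, and miR-15a and miR-16 share another. The same holds for miR-29b with miR-29c and for miR-200b with miR-429. This rests on which mature microRNA was printed, since those left out, such as let-7a-3p, miR-15a-3p and miR-29c-5p, have other seeds. MIR31HG had 2 member peaks, at 8.98 (6.80 to 11.6) and 4.57 (3.110 to 6.495), the stronger 48143 bp from the hairpin. MIR200BHG had 4.65 (3.55 to 6.01), close to the median of all members, with 57 fragments over a control of 11.5. MIR17HG, the host of a microRNA cluster known as a Myc target, is not a member; the summit nearest to either of its ends was 1587 bp away. In all, 36 of the 1464 genes with a member peak held 47 hairpins within their span, on either strand. The same count was not made over all distant lncRNA genes, so it does not show whether members hold more hairpins than others.

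Of 39 lncRNA genes studied in colorectal cancer, 20 had a summit (51.3%, 36.2 to 66.1), against 22.6% of all lncRNA genes. Of the 22 that were far from coding genes, 13 had one (59.1%, 38.7 to 76.7), against 11.2% of all distant lncRNA genes. A member peak was found at 13. Among these, PVT1, CCAT1, CCAT2, PCAT1, PRNCR1 and PCAT2 lie in the stretch around MYC on chromosome 8. PVT1, CCAT1, CCAT2 and PCAT1 are also in the list of genes linked to MYC. PVT1, NORAD, MALAT1, CYTOR and KCNQ1OT1 are also in that of widely expressed genes. The shares of these lists therefore rest partly on the same genes. PVT1, the neighbour of MYC on chromosome 8, had the highest, with a pileup of 223 over a control of 14.1 and a fold of 14.9 (13.0 to 16.9). NORAD, a cytoplasmic RNA that binds Pumilio proteins, had 9.60 (7.549 to 12.03), and LINC00659 had 9.24 (7.09 to 11.9). CCAT1, transcribed from the colorectal cancer locus upstream of MYC, had a summit near each end, with 9.36 (7.873 to 11.04) from a pileup of 138 and 8.31 (6.94 to 9.87) from a pileup of 127. The fifth by fold was MIR31HG. The strongest peaks of the other 8 genes ran from 2.09 at PCAT2 to 8.67 at MALAT1, with CYTOR at 7.90 (6.00 to 10.2). NEAT1 and H19 were not members: the nearest summit to an end was 1233 bp away at NEAT1, whose end lies 9273 bp from a coding end, and 26104 bp away at H19.

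Of 17 lncRNA genes listed as linked to MYC, 11 had a summit (64.7%, 41.3 to 82.7), against 22.6% of all lncRNA genes. So did 7 of the 10 distant ones (70%, 39.7 to 89.2), against 11.2% of all distant genes. A link to MYC was the ground for listing them, and not all lie near MYC or carry its name. DANCR, for example, is on chromosome 4, and DLEU1 and DLEU2 are on chromosome 13. The shares thus describe a set picked for such a link. Member peaks were found at 7 genes, PVT1, DANCR, DLEU2, CCAT1, CCAT2, PCAT1 and DLEU1, of which PVT1, CCAT1, CCAT2 and PCAT1 lie in the stretch around MYC. DLEU1 had 14.5 (12.5 to 16.8) at a summit within 1 kb of the internal start of DLEU2, with 180 fragments over a control of 11.5, and 3.24 (2.18 to 4.66) at its 3′ end. CCAT2 had 7.66 (6.26 to 9.29) and PCAT1 had 3.06 (2.09 to 4.32). Of 14 widely expressed lncRNA genes, 10 had a summit (71.4%, 45.4 to 88.3), as had 8 of the 9 distant ones (88.9%, 56.5 to 98.0). Over all lncRNA genes and all distant ones the shares were 22.6% and 11.2%. A member peak was found at 8, among them MIR4435-2HG at 6.32 (4.79 to 8.19), LINC00667 at 5.76 (4.48 to 7.29) and KCNQ1OT1, the antisense RNA of an imprinted domain, at 4.27 (2.99 to 5.91). The promoters of CYTOR and MIR4435-2HG shared 78.1% of 31-base words, so fragments there may not be told apart along all of their length.

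Of 20 lncRNA genes listed for other tissues, 1 had a summit (5%, 0.888 to 23.6), against 22.6% of all lncRNA genes. It was 1 of the 13 that were far from coding genes (7.69%, 1.37 to 33.3), a share near the 11.2% of all distant genes. The gene was MIR1-1HG, which hosts muscle microRNAs, with 3.72 (2.39 to 5.55) near its 3′ end and 3.54 (2.25 to 5.32) near its 5′ end, both below the median of the members. Of 9 genes listed for gut epithelium, 3 had a summit (33.3%, 12.1 to 64.6), an interval that includes the 22.6% of all lncRNA genes. Only 1 of the 9 was far from coding genes, and 1 had a member peak, LINC01558 at 8.52 (6.503 to 10.97).

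The widest member peak, 12807 bp, lay at MALAT1, an abundant nuclear RNA, and so was longer than the gene's 8779 bp. Its summit, 174 bp inside the 5′ end, had a pileup of 73 and a fold of 8.67 (6.82 to 10.9). The second widest, 7239 bp, was at LINC02736 with 15.6 (12.8 to 18.8), and the third, 6244 bp, was 1 of the CCAT1 peaks. LINC02736, MALAT1 and ENEMAL, which had 15.1 (12.4 to 18.3) over a width of 3693 bp, are neighbours on chromosome 11, with summits at 65487994, 65497912 and 65477780. LOC105375754 had the most member peaks, with 4, and 7 genes had 3. Of these 7, the 4 with the highest fold were SLCO4A1-AS1, LINC02387, RENO1 and LOC124904939. The peaks of LOC105375754, which lies 66102 to 72906 bp from MYC, were all weak, at 2.1896 to 3.2236 over control levels of 9.43 to 11.8. The strongest peak had a fold of 17.5 (14.7 to 20.6) in SLCO4A1-AS1 and 12.3 (10.2 to 14.7) in LINC02387, above the intervals of their other peaks. In RENO1 the strongest had 11.1 (8.62 to 14.02) and the next 7.71 (5.69 to 10.2), and in LOC124904939 the values were 7.76 (6.13 to 9.68) and 4.84 (3.38 to 6.74), so these intervals overlapped.

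Promoter sequence differed between lncRNA promoters at member summits and those of distant genes without a summit. Member promoters were chosen by the summit, so some of their genes have an end within 10 kb of a coding end. Genes with both ends over 10 kb away held 239 of the 299 with 15 or more CG dinucleotides. They held 215 of 241 with 5 to 14 and 224 of 247 with 0 to 4. The promoters without a summit are all of such genes. The 787 member promoters had a median of 9 CG dinucleotides per 300 bp and a GC content of 56.3%. The 5918 distant promoters with no summit within 1 kb had 3 and 45.0%, while coding promoters with a summit had 27 and 65.7%. At least 15 CG dinucleotides were found in 299 member promoters (38.0%), against 427 of the distant promoters without a summit (7.22%) and 86.6% of coding promoters with a summit. Read the other way, only genes with both ends over 10 kb from coding ends were counted. A summit lay within 1 kb of 239 of 666 such promoters with 15 or more (35.9%, 32.3 to 39.6). It did so for 215 of 1689 with 5 to 14 (12.7%, 11.2 to 14.4) and for 224 of 4241 with 0 to 4 (5.28%, 4.65 to 6.00). The median fold of member promoters ran the same way, at 6.64 (6.10 to 7.11), 5.42 (4.85 to 6.09) and 4.27 (3.94 to 4.57) in the same order.

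The E-box CACGTG, which reads the same on both strands, was in 58 of 787 member promoters (7.37%, 5.74 to 9.41). It was in 4.11% (3.63 to 4.64) of distant promoters without a summit, in 10.5% of coding promoters with a summit and in 7.35% of all 26246 promoters in the table. Within classes of CG content the intervals of the promoters with and without a summit overlapped. The shares were 1.62% against 2.27% with 0 to 4 CG dinucleotides, 10.4% (7.13 to 14.9) against 7.60% (6.35 to 9.06) with 5 to 14, and 9.70% (6.84 to 13.6) against 9.37% (6.95 to 12.5) with 15 or more. The 58 member promoters with an E-box had a median fold of 6.99 (5.63 to 8.01), against 5.20 (4.97 to 5.51) for the 729 without, and their median numbers of CG dinucleotides were 14.5 and 8.

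The AP-1 site TGAGTCA, searched on both strands, was in 104 of 787 member promoters (13.2%, 11.03 to 15.76). It was in 6.94% (6.32 to 7.62) of distant promoters without a summit, 3.25% of coding promoters with a summit and 4.89% of all promoters. This difference was seen where CG was sparse. The shares were 19.8% (15.3 to 25.3) against 7.77% (6.98 to 8.64) with 0 to 4 CG dinucleotides and 20.3% (15.7 to 25.9) against 6.11% (4.99 to 7.45) with 5 to 14. With 15 or more they were 2.01% (0.923 to 4.31) against 2.11% (1.11 to 3.96). The median fold was 5.55 (4.82 to 6.55) with the site and 5.25 (5.01 to 5.66) without it, and the intervals overlapped. AP-1 binding was not measured, and a match says only that these letters are present.

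**Figure D4:**
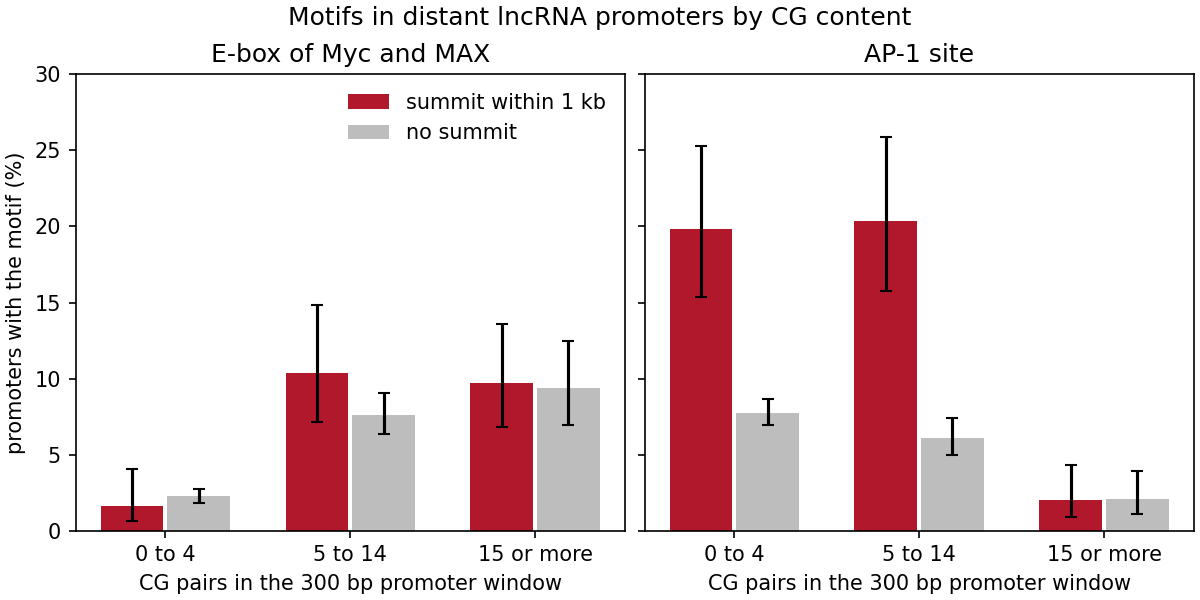
The share of 300 bp lncRNA promoter windows that hold the E-box (left) or the AP-1 site (right) is shown by number of CG dinucleotides. Red bars are promoters within 1 kb of a member summit, and grey bars are promoters of distant genes without a summit. Whiskers are Wilson 95% intervals. The E-box shares overlap in every class, and the AP-1 shares are 19.8% against 7.77% and 20.3% against 6.11% in the 2 CG-poor classes.

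Other short motifs were compared over whole sets only. GGGCGG, the site of SP1-type factors, was in 37.6% of member promoters, 10.4% of distant promoters without a summit and 73.2% of coding promoters with a summit. CCGGAAG, bound by ETS factors, was in 9.91%, 2.42% and 21.4% of the same sets, and CACGCG, a variant E-box, in 8.77%, 2.35% and 19.4%. TATAAA was in 12.3%, 20.3% and 4.99%. CCAAT differed little, at 33.3%, 36.5% and 36.8%. All were searched on both strands in the same 300 bp, and GGGCGG matches can overlap a CG-rich stretch of any origin.

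By chromosome, the share of distant lncRNA genes with a summit was highest on chromosome 20, at 59 of 303 genes (19.5%, 15.4 to 24.3), and on chromosome 17, at 17.4% (13.7 to 21.8). It was lowest on chromosome 4, at 45 of 688 (6.54%, 4.92 to 8.64), and on chromosome 18, at 6.61% (4.44 to 9.72). The control level moved with the chromosome too. Its median at member peaks was 9.43 fragments on chromosome 8, against 5.09 to 7.20 on each of the other autosomes. The 99 members on chromosome 8 had a median fold of 3.12 (2.78 to 3.53), and the 1470 elsewhere had 4.67. Their median pileup was 28. The 61 members of the stretch around MYC (114 to 142 Mb) had a median control of 10.5 and a median fold of 2.57, and the other 38 had 5.26 and 4.12, with pileups of 28 and 28.5. The part of the control level in these folds was not tested, and DNA copy number was not measured here.

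**Figure D5:**
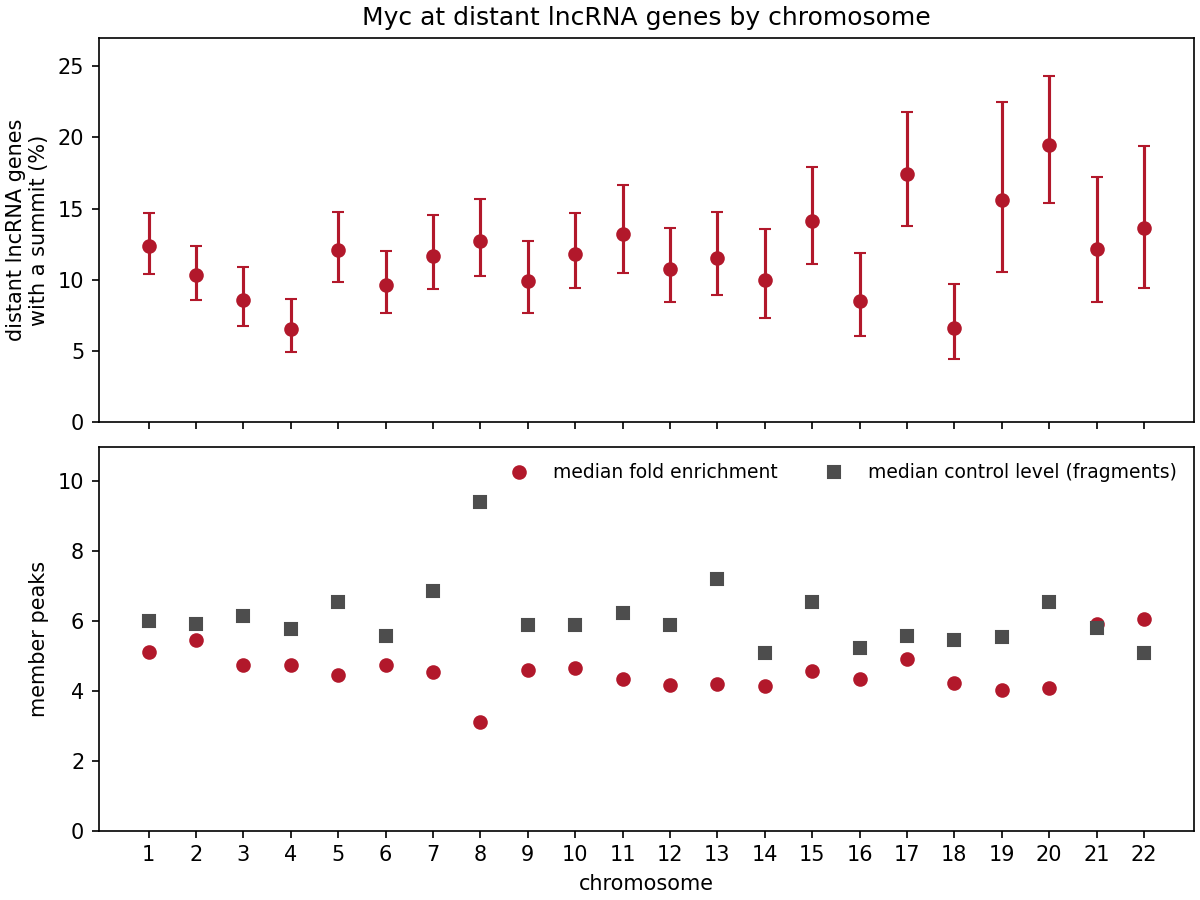
The upper panel shows the share of distant lncRNA genes with a Myc summit on each autosome, in percent with Wilson 95% intervals; the lower panel shows the median fold enrichment (circles) and the median control level in fragments (squares) of the member peaks. Chromosome 8 stands apart with a fold of 3.12 and a control level of 9.43.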

How the data were processed

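Myc CUT&RUN libraries of HT29 cells were processed by the authors. MACS2 2.1.2, BWA 0.7.15, Picard 2.19.0, SAMtools 1.5 and build hg38 are named without roles or settings, per the submitters' processing notes. The deposited list gives, for each peak, the authors' fold (a ratio), the −log10 p-value and q-value at the summit, a score that is 10 times −log10 q, and the summit's offset. The highest q listed was 0.0499. The control used, the joining of libraries and any removal of duplicates are not stated in these sources; the depth per library is unknown.

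Whole-number pileups were solved from the fold and −log10 p and gave back the listed value within 0.001 for 47016 of 47017 peaks; the procedure was tested on simulated data. Genes, biotypes, starts and promoter sequences came from RefSeq tables of GRCh38.p14; 11145 of 17795 lncRNA genes matched the promoter table. No genome was used, so motifs were searched in promoter windows, not under the summits. Intervals are exact Poisson on folds with the control held fixed, Wilson on shares and exact binomial on medians, all at 95%. They cover counting error or the spread among peaks; fragments carry no molecular identifiers. Named genes were the 12 members of highest fold, listed genes with a member peak (the 5 highest of lists with over 8), the 5 genes with most members, the 3 widest peaks and those at the limits; any other gene in the text was chosen after its values were seen. Members, lists and motifs were chosen with earlier results of these data known. No p-value was computed. Python 3.11.15 with pandas 2.3.3, NumPy 2.4.6 and SciPy 1.17.1 was used.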

Additional observations from a re-analysis of the deposited data

How the results depend on the processing

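No paired analysis was possible because the peak list holds 1 value per peak and none per library, so leaving out a library could not be run either. Taking 1 peak per interval changed nothing, since no member shares an interval. With a window of 2 kb there were 2363 members, with a −log10 q of at least 10 there were 841, and without LOC symbols 646, against 1569; the other 8 settings stayed within 1.5 times. The median fold of 4.57 was 4.79 with a window of 500 bp, 4.25 with 2 kb, 4.34 at over 20 kb from coding ends, 4.89 and 6.67 at −log10 q of at least 3 and 10, 4.88 without LOC symbols, and 4.17 once peaks over 2 kb wide or in the strongest 1% were dropped. The share of distant genes with a summit, 11.2%, was 8.18% with 500 bp, 15.1% with 2 kb, 11.99% and 10.10% at over 5 and 20 kb, 10.3% and 6.49% at −log10 q of at least 3 and 10, 16.3% without LOC symbols, 9.93% without the widest and strongest peaks, and 15.6% when 1 distant end was enough. The share of summits at the 5′ end, 71.8%, was 79.2% with 500 bp and 68.5% with 2 kb. The share of promoters with an E-box, 7.37%, was 15.5% when CACGCG was counted too. The AP-1 share, 13.2%, stayed between 13.2% and 14.5% under 3 settings chosen after seeing the data. The lowest pileup among members was 14 fragments, and sites below the authors' threshold were not analysed here.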

Other observations

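Genes of other kinds ended within 1 kb of 93 member summits (5.93%). The share was close to this, 5.53%, at lncRNA ends 1 to 10 kb from a coding end. It was 3.06% at coding ends and 2.94% at distant peaks without a lncRNA end. By biotype the 93 members were 36 peaks at transcribed pseudogenes, 28 at other pseudogenes, 15 at transfer RNA genes, 11 at small nuclear RNA genes, 10 at microRNA genes, 2 at small nucleolar RNA genes and 1 at a Y RNA gene, with some peaks counted under more than 1 kind. Shares by biotype over the other peaks were not computed. The 15 peaks at transfer RNA genes, which RNA polymerase III transcribes, had a median fold of 4.85 and a range of 2.63 to 21.2, and 8 of them lay on chromosome 6. At these summits the list cannot tell a lncRNA end from the neighbouring small RNA gene.

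The highest pileup of any member, 8709 fragments over a control of 1356, was at LOC101928626 on chromosome 1 (summit 629789), with a fold of 6.42 (6.29 to 6.56). The pseudogenes of mitochondrial genes MTND1P23 and MTND2P28 end within 1 kb of it. Pileup and control were both high there, and fragments of mitochondrial origin were not told apart from nuclear ones here.

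Near the limits of the rule, the members just inside 1 kb of a lncRNA end had folds of 10.8 (chromosome 2, 998 bp away) and 3.05 (chromosome 1, 999 bp), and the peaks just outside had 3.77 (chromosome 12, 1002 bp) and 9.43 (chromosome 4, 1005 bp). The members just over 10 kb from a coding end had 4.497 (10003 bp) and 5.98 (10018 bp), and the peaks just under had 8.95 (9956 bp) and 4.19 (9983 bp).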
